A study of Mus musculus with 21 samples.

Results

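Mouse hearts were infarcted, with or without FAPI, and RNA of the border zone, the muscle next to the infarct, was sequenced at day 7. The comparison used every heart library labelled border zone with the treatment MI+FAPI (4 libraries, called inhibitor hearts) and every wild-type one with the treatment MI alone (4 libraries, called MI hearts), so 8 of the 21 libraries of the series and 8 of its 15 heart libraries. MI stands for myocardial infarction, and FAPI is taken to mean an inhibitor of Fap, after the title of the series. Both groups were wild type and infarcted, and the labels give no difference between them other than the inhibitor. The sources used here do not give the compound, its dose and schedule, any vehicle in the MI hearts, or the strain, sex and age of the mice. Another 2 groups served as reference only: 3 sham-operated wild-type hearts and 4 infarcted hearts of the FapKO genotype, called knockout hearts, all from the border zone at day 7. The study asked whether Fap is a regulator of repair after infarction. The labels number the libraries of a group but do not say that each came from its own animal, so the p-values measure only the spread between these libraries, which may be technical.

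Fap encodes fibroblast activation protein, a membrane-bound serine protease that cuts peptides after proline and that appears on fibroblasts in healing wounds, scars and tumours but is scarce in resting adult tissue. Heart muscle under strain releases the natriuretic peptides ANP and BNP, encoded by Nppa and Nppb. They act through a receptor that makes cyclic GMP, and they lower blood volume, relax vessels and restrain fibrosis, and proteases end their action. In the border zone surviving cardiomyocytes lie beside granulation tissue of fibroblasts, macrophages and new vessels. Cardiomyocytes there are known to lower their adult contractile and fatty acid oxidation genes and to raise fetal and stretch-induced ones.

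Values are CPM, counts divided by library size on a common scale, after adjusting library sizes with TMM, edgeR's trimmed mean of M values. Differences are log2 fold changes, inhibitor minus MI, with an approximate standard error (SE). A gene rose or fell when the p-value of edgeR's quasi-likelihood test, adjusted over all genes by the Benjamini-Hochberg method, was under 0.05. Genes were named by the rule given with the processing, and those introduced as further members were chosen after their values were seen.

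The MI libraries held 18474138 to 25927151 gene counts and the inhibitor libraries 25798766 to 37287355, with 23849 to 24990 and 23429 to 25061 genes detected. Mitochondrially encoded genes took 4.18 to 8.03% of counts in MI and 10.9 to 13.2% in inhibitor libraries. In all 8 libraries Xist, the transcript of the inactive X chromosome, reached at most 0.365 CPM. Single libraries stood apart. MI replicate 2 carried skeletal muscle genes, such as Mylpf at 10.7, 293, 5.54 and 2.74 CPM in MI hearts 1 to 4. MI replicate 3 had the highest cardiomyocyte level of its group and the most RNA of the cytokine Il1b, at 1.58, 1.65, 20.4 and 3.51 CPM. MI replicate 4 had the most immunoglobulin RNA, such as that of Igkc, a further member, at 255, 709, 620.1 and 5105 CPM. Inhibitor replicate 3 had the most Spp1, at 523, 672, 4558 and 1287 CPM in inhibitor hearts 1 to 4. The mean level of 21 cardiomyocyte markers, in log2 CPM, was 8.13, 8.07, 9.49 and 8.49 in the MI hearts and 9.92, 10.5, 9.90 and 10.7 in the inhibitor hearts, so the groups did not overlap. In bulk tissue, a change in the number of cells of a type and a change in RNA per cell cannot be told apart. Their part in the differences between groups was not tested. In a fit with this marker level as a covariate, 22 genes had an adjusted p under 0.05, 1 higher and 21 lower. The marker level holds both changes at once, so that fit does not separate them. Group membership shared 76.5% of the variance of that level, so that fit has little contrast left between the groups. In it 4 of 22 chemokine genes and 2 of 14 neutrophil genes were lower, and no gene of the respiratory chain or fibrillar collagen lists described below passed.

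Of 17064 genes tested, 5043 differed between inhibitor and MI hearts, which is 29.6% of those tested. Of these, 3054 were higher in inhibitor hearts (17.9% of the genes tested) and 1989 were lower (11.7%). Expression differed by at least 2-fold in 1409 of them (8.26% of the genes tested), 1108 higher and 301 lower. The 4 values of one group lay wholly above or below those of the other in 26.1% of the genes tested, with the inhibitor hearts above in 15.6% and below in 10.5%. Over all genes tested the median log2 fold change was −0.03. Counts of list members given below stand beside the shares of all genes called, 17.9% higher and 11.7% lower. Counts of members without overlap likewise stand beside 15.6% above and 10.5% below. Higher genes made up 60.6% of the calls with TMM scaling, 48.7% with upper-quartile scaling, where the median was −0.10, and 14.6% with total-count scaling, where the median was −0.44. Rises below about that shift are therefore rises relative to the typical gene. Leaving out inhibitor replicate 4 lowered the number of calls to 3341.

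Fap RNA itself stood at 11.1, 13.2, 9.40 and 10.98 CPM in MI hearts 1 to 4 and at 7.75, 8.40, 10.4 and 6.47 CPM in inhibitor hearts 1 to 4. Inhibitor replicate 3 lay above MI replicate 3, so the groups overlapped, and the other inhibitor hearts lay below every MI heart. The fall was modest (log2 fold change −0.44, SE 0.14, adjusted p = 0.0303), and the call was lost without MI replicate 1, 2 or 4 or inhibitor replicate 1, 2 or 4 (adjusted p = 0.0511 to 0.114). Fap RNA was lower in sham hearts (3.32 ± 0.578 CPM, SD, n = 3) and in knockout hearts (2.16 ± 0.257 CPM, SD, n = 4). RNA does not measure whether the enzyme was blocked, so Fap is no check of the treatment label. Fap lies on the minus strand of chromosome 2 (mm10, chr2:62500943-62574075). Prcp, a lysosomal carboxypeptidase that cleaves after proline, fell (log2 fold change −0.46, SE 0.12, adjusted p = 0.00950). Prepl, a relative of prolyl oligopeptidase by sequence, rose (log2 fold change 0.48, SE 0.12, adjusted p = 0.00554). Dpp4, the closest relative of Fap, which inactivates incretin peptides, was at 1.89, 1.75, 2.52 and 2.85 CPM in MI and 3.20, 1.13, 2.15 and 1.47 CPM in inhibitor hearts, with no call (log2 fold change −0.17, SE 0.29, adjusted p = 0.697). Prolyl oligopeptidase, encoded by Prep, was not called either, at 0.30 log2 units (SE 0.12, adjusted p = 0.0662), but passed without MI replicate 3 (log2 fold change 0.37, adjusted p = 0.0313) or inhibitor replicate 3 (log2 fold change 0.35, adjusted p = 0.0396). Of the 8 genes tested of the list of prolyl peptidases and their relatives, 1 rose and 3 fell. The shares over all genes tested were 17.9% and 11.7%. The number of rises was 2 without MI replicate 3 or inhibitor replicate 3, and total-count scaling gave 0 rises and 4 falls.

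Nppb was more abundant in inhibitor hearts, while Nppa was not called. Nppb stood at 49.8, 25.2, 147 and 71.9 CPM in MI hearts 1 to 4 and at 220.0, 144, 310.1 and 325 CPM in inhibitor hearts 1 to 4. Only MI replicate 3 reached the lowest inhibitor heart, inhibitor replicate 2. The log2 fold change was 1.77 (SE 0.57, adjusted p = 0.0373), and the call was lost without MI replicate 1, 2 or 4 or inhibitor replicate 1, 3 or 4 (adjusted p = 0.0534 to 0.100). Nppa stood at 778, 610.2, 752 and 282 CPM in MI and 1149, 1294, 533 and 833 CPM in inhibitor hearts (log2 fold change 0.65, SE 0.29, adjusted p = 0.109). Inhibitor replicate 3 was lower than 3 of the MI hearts, and Nppa passed the test without inhibitor replicate 3 (log2 fold change 0.85, adjusted p = 0.0277). Both genes lie on the plus strand of chromosome 4, Nppb at chr4:147985788-147987205 and Nppa at chr4:148000722-148002079 (mm10). An exon of the antisense gene Gm13054 overlaps Nppa, and the strand used in counting is not stated.

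Corin, the cardiomyocyte membrane protease that cuts pro-ANP to its active form, stood at 5.94, 4.87, 17.3 and 10.2 CPM in MI hearts and 13.7, 18.4, 14.9 and 26.97 CPM in inhibitor hearts. Corin rose by 0.95 log2 units (SE 0.32, adjusted p = 0.0411), with overlap through MI replicate 3, and lost the call without MI replicate 1, 2 or 4 or inhibitor replicate 2 or 4 (adjusted p = 0.0706 to 0.152). Pde1c and Pde9a, phosphodiesterases that break down cyclic nucleotides, were higher in all 4 inhibitor hearts than in any MI heart. Pde1c was at 2.72, 2.94, 8.37 and 4.51 CPM in MI and 9.68, 12.97, 12.6 and 17.8 CPM in inhibitor hearts (log2 fold change 1.52, SE 0.29, adjusted p = 0.00142). Pde9a, a further member specific for cyclic GMP, changed by 1.12 log2 units (SE 0.27, adjusted p = 0.00458) at 0.385 to 0.773 CPM in MI and 0.950 to 1.44 CPM in inhibitor hearts. Ide, insulin-degrading enzyme, which also degrades ANP, rose from 15.5 ± 2.21 to 25.9 ± 5.03 CPM (SD, n = 4 each), a change of 0.74 log2 units (SE 0.15, adjusted p = 0.00129). Neither receptor gene was called. Npr1, the cyclic GMP-producing receptor of ANP and BNP, differed by −0.32 log2 units (SE 0.19, adjusted p = 0.214), and the clearance receptor Npr3 by 0.09 log2 units (SE 0.28, adjusted p = 0.843). Mme, which encodes neprilysin, the main natriuretic peptide-degrading protease, was at 0.694 to 1.26 CPM in MI hearts and 0.345 to 0.767 CPM in inhibitor hearts, a difference of −0.67 (SE 0.26, adjusted p = 0.0635). Mme passed, lower, without MI replicate 4 (log2 fold change −0.78, adjusted p = 0.0479) or inhibitor replicate 2 (log2 fold change −0.83, adjusted p = 0.0470) or inhibitor replicate 3 (log2 fold change −0.80, adjusted p = 0.0467). Of the 20 genes of natriuretic peptide and cyclic GMP signalling tested, 5 rose and 1 fell. The shares over all genes tested were 17.9% and 11.7%, and the median of the 20 was −0.009. The number of rises was 3 without MI replicate 1, 2 or 4 or inhibitor replicate 4, and the number of falls 0 without MI replicate 1 or 3 or inhibitor replicate 4, 2 without inhibitor replicate 2 and 3 without MI replicate 4 or inhibitor replicate 3. With total-count scaling 3 rose and 9 fell. In the neighbouring renin-angiotensin system, the angiotensin II receptor Agtr1a rose (log2 fold change 1.07, SE 0.21, adjusted p = 0.00134), from 3.48 to 5.97 CPM in MI to 6.62 to 12.8 CPM in inhibitor hearts. Ace, which produces angiotensin II, and its precursor Agt were not called (log2 fold changes 0.32 and −0.38). Ace passed without MI replicate 3 (log2 fold change 0.44, adjusted p = 0.0180) or inhibitor replicate 3 (log2 fold change 0.39, adjusted p = 0.0457).

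**Figure D1:**
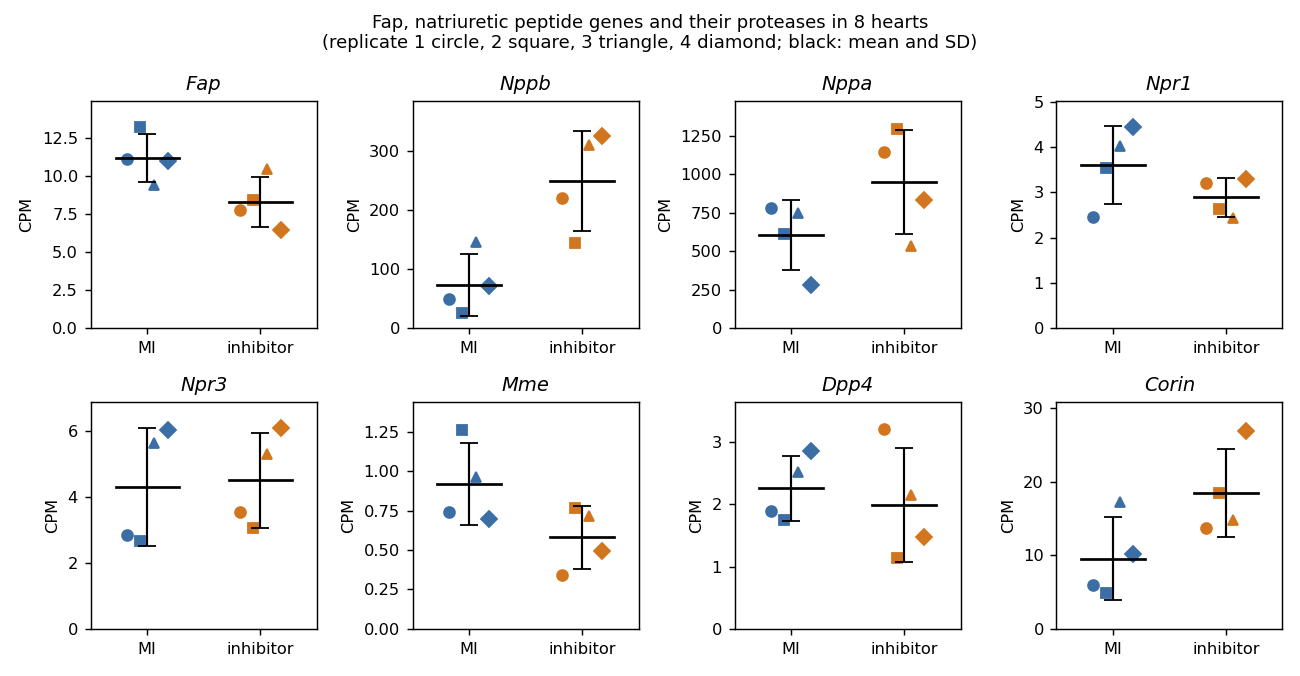
CPM of Fap, the natriuretic peptide genes Nppb and Nppa, the receptors Npr1 and Npr3, and the proteases Mme, Dpp4 and Corin in 4 MI (blue) and 4 inhibitor (orange) hearts, with 1 marker shape per replicate number and black lines for the mean and SD. Nppb and Corin are higher in inhibitor hearts apart from MI replicate 3, Fap is lower apart from inhibitor replicate 3, and the other 5 genes were not called.

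Promoters are shown for 4 genes that were higher in inhibitor hearts and whose control regions are well studied in stressed muscle: Nppb, the skeletal actin gene Acta1, the stretch-induced gene Ankrd1 and the myosin light chain gene Myl3. Each is the 300 bases around the start of transcription of RefSeq's GRCm38.p6 annotation, 250 before and 50 after, 5′ to 3′ on the gene's strand. Capitals mark the letters CATTCC on either strand, the core bound by the muscle transcription factors of the TEAD family.
Nppb (plus strand, chr4:147985650-147985949): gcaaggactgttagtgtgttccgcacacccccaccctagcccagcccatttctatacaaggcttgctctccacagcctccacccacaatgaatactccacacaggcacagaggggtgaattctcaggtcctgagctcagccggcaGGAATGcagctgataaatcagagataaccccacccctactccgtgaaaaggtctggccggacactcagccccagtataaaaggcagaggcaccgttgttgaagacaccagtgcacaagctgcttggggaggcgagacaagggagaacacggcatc
Acta1 (minus strand, chr8:123894726-123895025): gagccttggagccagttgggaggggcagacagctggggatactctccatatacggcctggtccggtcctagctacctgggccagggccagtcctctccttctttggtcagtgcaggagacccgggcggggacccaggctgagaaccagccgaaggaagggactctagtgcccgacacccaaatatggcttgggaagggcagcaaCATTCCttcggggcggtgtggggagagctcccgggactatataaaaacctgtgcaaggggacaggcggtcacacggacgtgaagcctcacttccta
Ankrd1 (minus strand, chr19:36119795-36120094): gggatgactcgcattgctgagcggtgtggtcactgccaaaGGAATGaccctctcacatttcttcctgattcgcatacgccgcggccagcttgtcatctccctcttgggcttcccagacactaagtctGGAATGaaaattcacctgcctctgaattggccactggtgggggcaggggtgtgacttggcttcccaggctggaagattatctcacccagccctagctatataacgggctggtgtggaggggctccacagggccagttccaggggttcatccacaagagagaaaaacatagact
Myl3 (plus strand, chr9:110763428-110763727): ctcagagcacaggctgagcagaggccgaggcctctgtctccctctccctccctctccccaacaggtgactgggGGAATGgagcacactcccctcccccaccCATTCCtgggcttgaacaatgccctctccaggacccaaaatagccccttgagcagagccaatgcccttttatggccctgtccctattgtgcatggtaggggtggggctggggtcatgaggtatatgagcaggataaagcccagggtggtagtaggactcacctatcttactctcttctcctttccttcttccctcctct
Nppb and Acta1 each hold 1 match and Ankrd1 and Myl3 hold 2 each. CATTCC was present in 14.6% of 27025 promoters of the same length, in 6 of 14 matched promoters of the cardiomyocyte stress genes described next, in 8 of 15 of sarcomere genes, in 6 of 18 of cardiomyocyte markers and in 3 of 14 of neutrophil genes. A match is a description of the letters and not evidence of binding.

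Most genes of the contractile apparatus and of cardiomyocyte strain were higher in inhibitor hearts, among them both adult and fetal forms. Of the 15 stress and stretch genes tested, 13 rose and 0 fell, with a median log2 difference of 1.64 beside −0.03 over all genes. Acta1, the skeletal form of alpha-actin that the fetal and the overloaded heart use, stood at 269, 802, 665 and 325 CPM in MI hearts 1 to 4 and at 3738, 4595, 1852 and 3678 CPM in inhibitor hearts 1 to 4. The lowest inhibitor heart, replicate 3, was above the highest MI heart, replicate 2 (log2 fold change 2.75, SE 0.39, adjusted p = 0.000197). Sham hearts held 557 ± 128 CPM (SD, n = 3), so the inhibitor hearts were above both other wild-type groups. Ankrd1, a nuclear and sarcomeric stretch sensor, stood at 2122, 1846, 3946 and 2146 CPM in MI and 7285, 9617, 5463 and 8697 CPM in inhibitor hearts (log2 fold change 1.63, SE 0.25, adjusted p = 0.000255), again without overlap. Myh7, the slow myosin heavy chain that dominates the fetal mouse ventricle, rose by 2.40 log2 units (SE 0.44, adjusted p = 0.00179), from 11.6 to 45.5 CPM to 76.5 to 192 CPM. The antisense transcript Mhrt shares exon positions with Myh7, and the counting strand is not stated. Xirp1, an actin-binding protein of the intercalated disc, rose by 1.47 log2 units (SE 0.34, adjusted p = 0.00566). Rcan1, a further member and a feedback inhibitor of calcineurin, rose from 58.3 ± 28.01 to 155 ± 34.1 CPM (SD, n = 4 each), a change of 1.41 log2 units (SE 0.28, adjusted p = 0.00183).

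Adult isoforms also rose. Myh6, the fast adult myosin heavy chain, stood at 142, 158, 362 and 134 CPM in MI hearts and 698, 1053, 526 and 1116 CPM in inhibitor hearts (log2 fold change 2.09, SE 0.30, adjusted p = 0.000187). All inhibitor hearts were above all MI hearts, and all were below the sham mean of 2602 ± 113 CPM (SD, n = 3). Myl3, the ventricular essential light chain, stood at 482, 557, 1527 and 604 CPM and 2985, 4706, 3398 and 6034 CPM, with the same separation (log2 fold change 2.43, SE 0.32, adjusted p = 0.000112). Tnnt2 and Actc1, cardiac troponin T and cardiac actin, rose by 0.999 log2 units (SE 0.30, adjusted p = 0.0194) and 0.86 log2 units (SE 0.26, adjusted p = 0.0190), and their ranges overlapped through MI replicate 3. Tnnt2 lost the call without MI replicate 1 or 2 or inhibitor replicate 4 (adjusted p = 0.0648, 0.0599 and 0.0759), and Actc1 without MI replicate 1 or 2 or inhibitor replicate 4 (adjusted p = 0.0614, 0.0555 and 0.0653). Of 15 sarcomere isoforms, 11 rose and 1 fell. The fall was of Tpm2, a further member that encodes a tropomyosin of smooth and skeletal muscle (log2 fold change −0.93, SE 0.27, adjusted p = 0.0184), and the call was lost without MI replicate 2 or inhibitor replicate 4 (adjusted p = 0.0624 and 0.0537). The number of falling isoforms was 0 without MI replicate 2 or inhibitor replicate 4 and 2 without MI replicate 1 or 4, and 3 with total-count scaling. The atrial light chains Myl7 and Myl4, the latter also used by the fetal ventricle, were not called. Myl7 stood at 4.70, 0.619, 48.3 and 2.74 CPM in MI hearts 1 to 4 and 1.73 to 7.44 CPM in inhibitor hearts, and Myl4 at 10.8 to 75.4 and 9.36 to 11.1 CPM (log2 fold change −1.65, SE 0.61, adjusted p = 0.0635). Myl4 was lower past the threshold without MI replicate 1 (log2 fold change −1.94, adjusted p = 0.0327) or MI replicate 4 (log2 fold change −1.94, adjusted p = 0.0334). The wider set of 21 cardiomyocyte markers, which shares members with these lists, had 20 rises and 0 falls, and its summed level was 14456 to 43283 CPM in MI and 48439 to 87131 CPM in inhibitor hearts. The member not called was Ryr2, the calcium release channel (log2 fold change 0.84, SE 0.31, adjusted p = 0.0549), which passed without MI replicate 3 (log2 fold change 1.17, adjusted p = 0.00693) or inhibitor replicate 1 (log2 fold change 0.96, adjusted p = 0.0433).

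Calcium cycling genes were mostly higher: of 19 tested, 13 rose and 1 fell, and with total-count scaling 10 rose and 5 fell. Atp2a2, the pump SERCA2 that refills the sarcoplasmic reticulum, stood at 127, 134, 234 and 183 CPM in MI and 395, 622, 309.7 and 563 CPM in inhibitor hearts (log2 fold change 1.48, SE 0.24, adjusted p = 0.000310). Its inhibitor phospholamban, Pln, rose by nearly the same amount (log2 fold change 1.47, SE 0.19, adjusted p = 9.61e-05), and no inhibitor heart overlapped an MI heart in either gene. Cacna1c, the pore of the L-type calcium channel, rose by 0.80 log2 units (SE 0.20, adjusted p = 0.00810), and Asph, which encodes junctin beside other products, by 1.39 log2 units (SE 0.17, adjusted p = 7.87e-05). The fall was of Fkbp1b, a further member whose product binds the ryanodine receptor (log2 fold change −0.64, SE 0.15, adjusted p = 0.00350). The number of falls was 2 without MI replicate 1 or 4. The sarcolipin gene Sln was at 5.32, 156, 48.6 and 1.08 CPM in MI hearts 1 to 4 and 1.02 to 6.21 CPM in inhibitor hearts and was not called (log2 fold change −4.13, SE 1.48, adjusted p = 0.0560), but passed, lower, without MI replicate 1 (log2 fold change −4.51, adjusted p = 0.0457) or MI replicate 4 (log2 fold change −4.54, adjusted p = 0.0319). MI replicate 2, the library with skeletal muscle genes, held most of its RNA.

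Of 15 potassium channel genes, 11 rose (6 without inhibitor replicate 4) and 0 fell. Kcnip2, the subunit that sets the density of the transient outward current, stood at 1.70, 2.14, 3.67 and 2.08 CPM in MI and 11.7, 15.2, 6.996 and 12.7 CPM in inhibitor hearts (log2 fold change 2.28, SE 0.27, adjusted p = 0.000108). All inhibitor hearts were above all MI hearts. Kcnd2, a pore subunit of that current, rose by 1.17 log2 units (SE 0.39, adjusted p = 0.0363) with overlap, and lost the call without MI replicate 1 or 2 or inhibitor replicate 1, 2 or 4 (adjusted p = 0.0517 to 0.124). Kcnq1, of the slow delayed rectifier, rose by 1.0999 log2 units (SE 0.29, adjusted p = 0.0102), and Kcna5, of the ultrarapid one, by 1.37 log2 units (SE 0.20, adjusted p = 0.000162). Among 18 sodium and pacemaker channel and intercalated disc genes, 11 rose (6 without inhibitor replicate 4) and 1 fell, against 7 and 3 with total-count scaling. Gja1, connexin 43 of the working myocardium, rose from 81.1 ± 31.997 to 161 ± 36.2 CPM (SD, n = 4 each), a change of 0.99 log2 units (SE 0.21, adjusted p = 0.00247). Gja5, connexin 40 of arteries and the conduction system and a further member, was the gene that fell (log2 fold change −0.72, SE 0.19, adjusted p = 0.00930). Pkp2 and Ctnna3, desmosomal and area composita proteins, rose by 1.16 log2 units (SE 0.27, adjusted p = 0.00554) and 1.22 log2 units (SE 0.19, adjusted p = 0.000269).

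Transcription factors of the cardiac lineage were uneven. Of 13 tested, 6 rose and 0 fell, and the median log2 difference of 0.28 turned to −0.14 with total-count scaling. Gata4, an early cardiac factor that also serves hypertrophic growth, stood at 9.53, 8.12, 17.7 and 12.7 CPM in MI and 19.2, 21.5, 22.5 and 27.1 CPM in inhibitor hearts (log2 fold change 0.91, SE 0.19, adjusted p = 0.00197). Nkx2-5, a homeobox factor, rose by 1.28 log2 units (SE 0.31, adjusted p = 0.00753), and Irx4, which marks ventricular muscle, by 1.48 log2 units (SE 0.28, adjusted p = 0.00107). Mef2c, a muscle factor, was not called (log2 fold change −0.35, SE 0.22, adjusted p = 0.254). Of 14 adrenergic and muscarinic genes, 5 rose and 2 fell, and their median of 0.33 turned to −0.09 with total-count scaling. The alpha1 receptors Adra1a and Adra1b, which act on cardiomyocyte growth and survival, rose by 1.33 log2 units (SE 0.23, adjusted p = 0.000443) and 1.37 log2 units (SE 0.27, adjusted p = 0.00121). Adrb1, the main beta receptor of heart muscle, was not called (log2 fold change 0.37, SE 0.21, adjusted p = 0.194), but passed without MI replicate 3 (log2 fold change 0.62, adjusted p = 0.0219). The number of adrenergic falls was 1 without MI replicate 1, 2, 3 or 4 or inhibitor replicate 2, 3 or 4, and 5 with total-count scaling.

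Genes of energy metabolism rose across oxidation of fatty acids, the TCA cycle and the respiratory chain. Of 26 fatty acid oxidation genes tested, 24 rose and 0 fell. In 24 of the 26, every inhibitor heart was above every MI heart. Acadl, the long-chain acyl-CoA dehydrogenase, stood at 157, 141, 379.9 and 191 CPM in MI and 523, 692, 542 and 877 CPM in inhibitor hearts (log2 fold change 1.60, SE 0.26, adjusted p = 0.000325). Sham hearts were higher still, at 1523 ± 129 CPM (SD, n = 3). Hadha, of the mitochondrial trifunctional protein, rose by 1.18 log2 units (SE 0.17, adjusted p = 0.000158), and Cd36, the fatty acid transporter of the cell surface, by 1.001 log2 units (SE 0.19, adjusted p = 0.00106). Cpt1b, the carnitine shuttle enzyme of muscle mitochondria, had at most 5 counts in each of the 8 libraries and was not tested. Of 17 PPAR, ERR and PGC1 regulators, 11 rose and 1 fell (3 with total-count scaling). Ppargc1a, the coactivator PGC-1alpha that drives mitochondrial biogenesis, stood at 6.56, 6.96, 14.7 and 9.21 CPM and 22.8, 34.4, 21.9 and 36.8 CPM (log2 fold change 1.63, SE 0.25, adjusted p = 0.000323), without overlap. Ppara, the fatty acid-sensing nuclear receptor, rose by 1.92 log2 units (SE 0.22, adjusted p = 8.59e-05), and Esrra, the estrogen-related receptor alpha, by 0.97 log2 units (SE 0.20, adjusted p = 0.00197). The fall was of Rxra, a further member and a dimer partner of the PPARs (log2 fold change −0.47, SE 0.10, adjusted p = 0.00225).

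All 29 of 29 subunits of respiratory complex I rose, with log2 fold changes of 0.87 to 1.66. So did all 32 of 32 nuclear-encoded subunits of complexes II to V, at 1.15 to 2.07. In each of these 29 and 32 genes the 2 groups did not overlap. Both sets also rose in full with total-count scaling. Ndufv1, the flavoprotein where complex I takes up electrons, stood at 157, 128, 303 and 169 CPM in MI and 460.2, 591, 363 and 732 CPM in inhibitor hearts (log2 fold change 1.503, SE 0.25, adjusted p = 0.000449). Cox8b, a heart and muscle form of a cytochrome oxidase subunit, rose from 630.0 ± 266 to 2649.5 ± 817 CPM (SD, n = 4 each), by 2.07 log2 units (SE 0.27, adjusted p = 9.61e-05). Cox4i1, the form found in most tissues, rose by 1.15 log2 units (SE 0.23, adjusted p = 0.00138). All 9 of the 9 mitochondrially encoded protein genes tested rose as well, with mt-Co1, the catalytic subunit of cytochrome oxidase, at 1.71 log2 units (SE 0.22, adjusted p = 9.61e-05). The call of mt-Atp6, of ATP synthase, was lost without MI replicate 1 or 2 or inhibitor replicate 4 (adjusted p = 0.0683, 0.0649 and 0.117). The genes mt-Co2, mt-Co3, mt-Atp8 and mt-Nd4l had at most 5 counts in each of the 8 libraries and were not tested. Mitochondrial ribosomal protein genes rose in 28 of 30 cases but by less, with a median of 0.77 and 21 rises with total-count scaling.

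Of 27 genes of the TCA cycle and of pyruvate dehydrogenase, 24 rose and 0 fell. Cs, citrate synthase, rose by 1.199 log2 units (SE 0.18, adjusted p = 0.000196), and Ogdh, of the oxoglutarate dehydrogenase complex, by 1.29 log2 units (SE 0.23, adjusted p = 0.000739). Pdk4, a kinase that turns pyruvate dehydrogenase off when fat is burned, rose by 0.74 log2 units (SE 0.19, adjusted p = 0.00677), and Pdha1, the dehydrogenase subunit it acts on, by 0.997 log2 units (SE 0.16, adjusted p = 0.000274). Branched-chain amino acid catabolism had 17 rises among 19 genes, but 8 with total-count scaling. Hibch and Hibadh, enzymes of the valine branch, rose by 1.29 log2 units (SE 0.14, adjusted p = 4.49e-05) and 1.199 log2 units (SE 0.18, adjusted p = 0.000194). Glucose uptake and glycolysis genes rose in 20 of 26 cases. Slc2a4, the insulin-responsive glucose transporter GLUT4, stood at 10.4, 10.96, 25.5 and 14.3 CPM in MI and 34.9, 50.7, 35.5 and 56.5 CPM in inhibitor hearts (log2 fold change 1.54, SE 0.24, adjusted p = 0.000364). Fbp2, the muscle form of fructose bisphosphatase, rose by 1.98 log2 units (SE 0.22, adjusted p = 6.95e-05). In the creatine energy shuttle, the mitochondrial creatine kinase Ckmt2 rose by 2.30 log2 units (SE 0.30, adjusted p = 0.000117) and the muscle form Ckm by 1.70 log2 units (SE 0.23, adjusted p = 0.000122). Of the 7 genes of this shuttle, 4 rose and 1 fell (2 without MI replicate 1 or inhibitor replicate 3), against 3 and 3 with total-count scaling. Plin5, the lipid droplet protein that tethers droplets to mitochondria, rose by 2.38 log2 units (SE 0.28, adjusted p = 9.61e-05), the most of its list. Of the 10 lipid droplet genes tested, 3 rose and 0 fell, with a median of 0.12, and total-count scaling gave 2 rises and 4 falls.

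Antioxidant genes rose in part. Sod2 and Prdx3, which clear superoxide and peroxide inside mitochondria, rose by 1.39 log2 units (SE 0.23, adjusted p = 0.000406) and 1.16 log2 units (SE 0.15, adjusted p = 0.000100), and Nqo1, a cytosolic quinone reductase, by 1.56 log2 units (SE 0.21, adjusted p = 0.000169). Hmox1, heme oxygenase, was not called (log2 fold change −0.69, SE 0.27, adjusted p = 0.0724), but passed, lower, without inhibitor replicate 1 (log2 fold change −0.92, adjusted p = 0.0198). Of 20 antioxidant genes, 8 rose and 2 fell, and the median of 0.15 turned to −0.26 with total-count scaling, which gave 5 rises and 9 falls. The number of falls was 1 without MI replicate 1, 3 or 4 or inhibitor replicate 2 or 4.

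**Figure D2:**
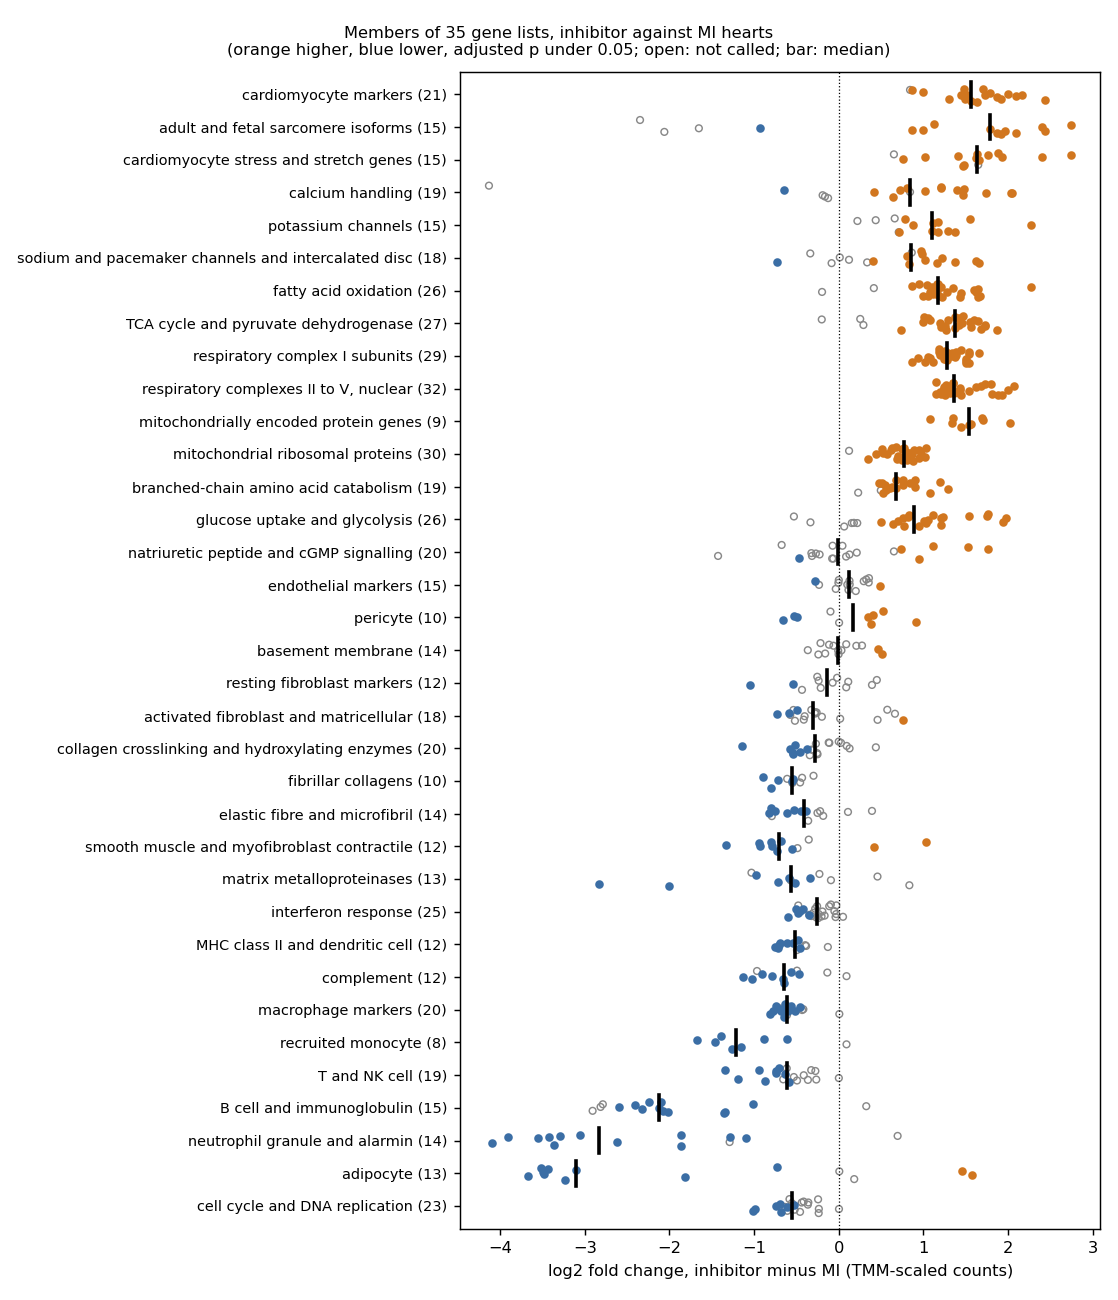
Log2 fold changes (inhibitor minus MI, horizontal axis) of the tested members of 35 gene lists (rows, with the number tested), with orange points for genes that rose, blue for genes that fell, open points for genes not called and a bar at each median. The medians of the cardiomyocyte and mitochondrial lists lie right of 0, and the medians of the neutrophil, B cell and adipocyte lists are −2.84, −2.12 and −3.10.

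Matrix genes fell in part. Fibrillar collagens, the ropes of scar tissue, had 5 falls and 0 rises among 10 genes, with a median log2 difference of −0.55. With total-count scaling 8 fell. Col1a1, the main chain of type I collagen, stood at 4822, 6989, 4073 and 3718 CPM in MI hearts and 3208, 3103, 2789.5 and 1478 CPM in inhibitor hearts (log2 fold change −0.89, SE 0.24, adjusted p = 0.0104). No inhibitor heart reached the lowest MI heart. Col1a2, its partner chain, and Col3a1, of type III collagen, fell too, with log2 fold changes of −0.80 (SE 0.19, adjusted p = 0.00485) and −0.55 (SE 0.15, adjusted p = 0.0103). The Col1a1 level of every inhibitor heart was above the sham mean of 765 ± 125 CPM (SD, n = 3). Among 11 other collagens, 6 fell (3 without MI replicate 1 or 2 or inhibitor replicate 4, but 11 under total-count scaling). Col18a1, the source of endostatin, changed by −0.81 log2 units (SE 0.16, adjusted p = 0.00112). Elastic fibre and microfibril genes had 7 falls among 14 (12 with total-count scaling). Efemp2, fibulin-4, which brings lysyl oxidase to elastin, changed by −0.75 log2 units (SE 0.14, adjusted p = 0.000922), and Mfap2, a microfibril glycoprotein, by −0.82 log2 units (SE 0.11, adjusted p = 0.000109). Elastin itself, Eln, was not called (log2 fold change −0.36, SE 0.15, adjusted p = 0.0718), although its 2 groups did not overlap.

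Enzymes that mature collagen fell in 7 of 20 cases (2 without inhibitor replicate 4, 3 without MI replicate 1 and 4 without MI replicate 2 or inhibitor replicate 3, but 14 under total-count scaling). Bmp1, which trims procollagen, and Crtap, of the proline hydroxylation complex, changed by −0.54 log2 units (SE 0.14, adjusted p = 0.00889) and −0.54 log2 units (SE 0.12, adjusted p = 0.00336). Lox, which crosslinks collagen, and Plod2, a lysyl hydroxylase, were not called (log2 fold changes −0.25 and −0.11). Biglycan, Bgn, a small proteoglycan that binds collagen, fell (log2 fold change −0.49, SE 0.13, adjusted p = 0.0100), while decorin, Dcn, was not called (log2 fold change −0.03, SE 0.14, adjusted p = 0.907). Of 9 such proteoglycans, 3 fell (1 without MI replicate 1 or inhibitor replicate 4, but 7 under total-count scaling). Basement membrane genes had 2 rises and 0 falls among 14, with Lama2, the laminin chain that anchors muscle fibres, at 0.51 log2 units (SE 0.12, adjusted p = 0.00470). The number of these rises was 1 without MI replicate 2 or 4 or inhibitor replicate 1, 2 or 3, and total-count scaling gave 0 rises and 11 falls.

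With TMM scaling most markers of the activated fibroblast state were not called, and their median log2 fold change was −0.30. Postn, periostin, the standard marker of activated cardiac fibroblasts, stood at 1238, 1436, 785 and 1062 CPM in MI and 1331, 1299, 1080.1 and 867 CPM in inhibitor hearts (log2 fold change 0.02, SE 0.18, adjusted p = 0.953). The ranges overlapped. Cthrc1, Fn1 and Tnc, other proteins of early scar, were not called (log2 fold changes −0.53, −0.41 and −0.57). Cthrc1 passed without MI replicate 3 (log2 fold change −0.72, adjusted p = 0.0158), and Fn1 without MI replicate 3 (log2 fold change −0.53, adjusted p = 0.0381). Meox1, a transcription factor of stressed fibroblasts, rose by 0.76 log2 units (SE 0.11, adjusted p = 0.000162), with 24.7 to 31.02 CPM in MI and 39.01 to 52.4 CPM in inhibitor hearts. Thbs2, a thrombospondin, fell (log2 fold change −0.73, SE 0.23, adjusted p = 0.0270), a call lost without MI replicate 1 or 2 or inhibitor replicate 1 or 4 (adjusted p = 0.0545 to 0.0936). Of 18 activated fibroblast and matricellular genes, 1 rose and 3 fell (0 without MI replicate 1 or 2 or inhibitor replicate 4 and 7 without MI replicate 3, but 12 under total-count scaling). Among all genes tested 17.9% rose and 11.7% fell. The summed level of the 18 genes was 10382 to 14574 CPM in MI and 8125 to 13810.3 CPM in inhibitor hearts. The general fibroblast marker Pdgfra was not called (log2 fold change −0.24, SE 0.10, adjusted p = 0.0770), but passed without inhibitor replicate 3 (log2 fold change −0.29, adjusted p = 0.0422). Of 12 resting fibroblast markers, 2 fell (0 without MI replicate 2 or inhibitor replicate 4 and 1 without MI replicate 4 or inhibitor replicate 2) against 8 under total-count scaling, with a summed level of 1569.8 to 1819.8 CPM in MI and 1729 to 2050.2 CPM in inhibitor hearts. Sfrp4, a secreted Wnt antagonist, stood at 4.83, 11.6, 4.64 and 4.51 CPM in MI and 1.93, 0.657, 2.42 and 0.924 CPM in inhibitor hearts (log2 fold change −2.10, SE 0.40, adjusted p = 0.00144).

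Contractile genes of smooth muscle and myofibroblasts mostly fell: of 12 tested, 8 fell and 2 rose (1 with total-count scaling). Acta2, alpha smooth muscle actin, stood at 991, 766, 486 and 763 CPM in MI and 452, 466, 447 and 202 CPM in inhibitor hearts (log2 fold change −0.94, SE 0.25, adjusted p = 0.00996), without overlap. Cnn1, calponin, changed by −0.80 log2 units (SE 0.18, adjusted p = 0.00424), and Myh11, the smooth muscle myosin heavy chain, by −0.55 log2 units (SE 0.14, adjusted p = 0.00816). Tagln, transgelin, was not called (log2 fold change −0.49, SE 0.31, adjusted p = 0.259). Synpo2, a Z-disc and actin-bundling protein that cardiomyocytes also express, rose (log2 fold change 1.03, SE 0.18, adjusted p = 0.000554), and the number of rises was 1 without MI replicate 4 or inhibitor replicate 2 or 4. Matrix metalloproteinases fell in 7 of 13 cases (4 without inhibitor replicate 4). Mmp14, a membrane-bound collagenase, stood at 238, 314, 174 and 199 CPM in MI and 141, 125, 139 and 66.98 CPM in inhibitor hearts (log2 fold change −0.97, SE 0.22, adjusted p = 0.00429). Mmp9, a gelatinase stored in neutrophil granules, stood at 0.402, 1.06, 6.19 and 0.925 CPM and 0.345, 0.219, 0.299 and 0.318 CPM (log2 fold change −2.84, SE 0.76, adjusted p = 0.0126), with MI replicate 3 highest, and the log2 fold change was −1.41 without MI replicate 3 (adjusted p = 0.0162). Among the inhibitors of these enzymes Timp4, the cardiac form, rose by 1.87 log2 units (SE 0.29, adjusted p = 0.000393). Timp2 fell (log2 fold change −0.91, SE 0.17, adjusted p = 0.000774), and Timp1 was not called (log2 fold change −0.20, SE 0.15, adjusted p = 0.343). In the TGF-beta pathway, the main inducer of scar matrix, 4 of 17 genes fell (2 without MI replicate 1 or 4, but 15 under total-count scaling). The receptor Tgfbr2 fell (log2 fold change −0.48, SE 0.11, adjusted p = 0.00479), and the ligand Tgfb1 was not called (log2 fold change −0.03, SE 0.16, adjusted p = 0.899).

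Leukocyte genes fell across lineages, most of all those of neutrophils. Of 14 neutrophil granule and alarmin genes tested, 12 fell and 0 rose, with a median log2 difference of −2.84 and a summed level of 312 to 1359.6 CPM in MI and 91.4 to 142 CPM in inhibitor hearts. S100a8, a subunit of the alarmin calprotectin, stood at 75.3, 567, 605 and 148 CPM in MI hearts 1 to 4 and 34.6, 29.3, 49.1 and 29.2 CPM in inhibitor hearts 1 to 4. MI replicates 2 and 3 were several times above MI replicates 1 and 4, and all 4 were above every inhibitor heart (log2 fold change −3.29, SE 0.56, adjusted p = 0.00118). S100a9, its partner, followed the same order among the MI hearts (log2 fold change −3.42, SE 0.60, adjusted p = 0.00146). Ngp and Camp, granule genes of immature neutrophils, instead peaked in MI replicate 2. Ngp stood at 3.13, 55.4, 8.62 and 10.9 CPM in MI and 1.59, 1.06, 1.38 and 0.578 CPM in inhibitor hearts, a change of −4.10 log2 units (SE 0.84, adjusted p = 0.00376), which was −2.71 without MI replicate 2 (adjusted p = 0.00128). Camp changed by −3.91 log2 units (SE 0.86, adjusted p = 0.00584), which was −2.45 without MI replicate 2 (adjusted p = 0.00442). Csf3r, the receptor for the granulocyte growth factor, stood at 6.10, 6.75, 8.52 and 3.89 CPM and 3.79, 2.15, 3.56 and 2.37 CPM (log2 fold change −1.09, SE 0.22, adjusted p = 0.00132). Hp, haptoglobin, which neutrophils, fat and liver make, fell (log2 fold change −3.37, SE 0.60, adjusted p = 0.00160).

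Macrophage markers fell with a smaller median log2 fold change, −0.61. Of 20 tested, 15 fell and 0 rose, and in 11 every inhibitor heart was below every MI heart. Their summed level was 11747 to 17396 CPM in MI and 7665 to 13159.8 CPM in inhibitor hearts. Aif1, the calcium-binding protein Iba1, stood at 234, 194, 215 and 219.9 CPM in MI and 124, 133, 146 and 124 CPM in inhibitor hearts (log2 fold change −0.71, SE 0.10, adjusted p = 0.000137). Fcer1g, the adaptor of Fc receptors, changed by −0.81 log2 units (SE 0.16, adjusted p = 0.00146), Csf1r, the macrophage growth factor receptor, by −0.59 log2 units (SE 0.13, adjusted p = 0.00214), and C1qa, of complement C1q, by −0.66 log2 units (SE 0.14, adjusted p = 0.00226). Cd68, the lysosomal marker, was not called: it stood at 363, 237, 131 and 208.9 CPM and 132, 144, 202 and 105 CPM (log2 fold change −0.69, SE 0.29, adjusted p = 0.0856), with MI replicate 3 lowest in its group and inhibitor replicate 3 highest in its own, and it passed without MI replicate 3 (log2 fold change −0.89, adjusted p = 0.0164) or inhibitor replicate 3 (log2 fold change −0.89, adjusted p = 0.0389). Genes of recently recruited monocytes fell in 7 of 8 cases. Ly6c2, the marker of inflammatory monocytes, stood at 18.4, 21.4, 24.8 and 49.8 CPM and 10.7, 13.3, 11.7 and 7.97 CPM (log2 fold change −1.39, SE 0.35, adjusted p = 0.0106). Chil3 and Plac8, also of young monocytes, changed by −1.46 log2 units (SE 0.36, adjusted p = 0.00826) and −1.15 log2 units (SE 0.19, adjusted p = 0.000385). Resident macrophage markers were mostly uncalled, 1 of 8 lower, with Timd4, which binds dying cells, at −0.85 log2 units (SE 0.53, adjusted p = 0.244). Lipid-associated macrophage genes likewise had 1 fall among 14, with Trem2, a lipid receptor, and Spp1, osteopontin, not called (log2 fold changes −0.59 and 0.57). Trem2 passed without MI replicate 3 (log2 fold change −0.78, adjusted p = 0.0223) or inhibitor replicate 3 (log2 fold change −0.82, adjusted p = 0.0340). The number of falls was 0 without MI replicate 4 or inhibitor replicate 2 or 4 and 3 without MI replicate 1 for resident macrophage markers, and 0 without MI replicate 1 or 4 or inhibitor replicate 2 or 4, 3 without MI replicate 3 and 4 without inhibitor replicate 3 for lipid-associated ones. With total-count scaling these were 6 and 8.

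Lymphocyte genes also fell. Of 15 B cell and immunoglobulin genes, 11 fell (7 without MI replicate 2 or inhibitor replicate 4). Ms4a1, the B cell surface protein CD20, stood at 1.92, 4.61, 1.28 and 4.39 CPM in MI and 0.930, 0.438, 0.418 and 0.520 CPM in inhibitor hearts (log2 fold change −2.40, SE 0.59, adjusted p = 0.00815). Cd79b, of the B cell receptor, changed by −1.36 log2 units (SE 0.27, adjusted p = 0.00177). Ighm, the heavy chain of IgM, was not called. It stood at 109.7, 285, 199.99 and 1656 CPM in MI hearts 1 to 4 and 29.8, 23.1, 153 and 93.1 CPM in inhibitor hearts 1 to 4, and MI replicate 4 held most of the MI total. T and NK cell genes fell in 9 of 19 cases (14 with total-count scaling). Cd4, of helper T cells, changed by −0.94 log2 units (SE 0.23, adjusted p = 0.00630), and Cd2, an adhesion receptor of T and NK cells, by −0.74 log2 units (SE 0.15, adjusted p = 0.00163). Cd3e and Cd8a were not called (log2 fold changes −0.66 and −0.36). Cd3e passed without MI replicate 1 (log2 fold change −0.88, adjusted p = 0.0496).

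Antigen presentation, complement and chemokine genes also fell. Of 12 MHC class II and dendritic cell genes, 8 fell (5 without MI replicate 3 or 4 or inhibitor replicate 1, 2 or 4). H2-Ab1, a class II chain, stood at 718, 572, 728 and 773 CPM in MI and 401, 414, 433 and 453 CPM in inhibitor hearts (log2 fold change −0.71, SE 0.16, adjusted p = 0.00345). Ciita, the class II transactivator, changed by −0.71 log2 units (SE 0.20, adjusted p = 0.0118). Class I and peptide loading genes fell in 7 of 12 cases (11 with total-count scaling), with H2-K1, a class I chain, at −0.61 log2 units (SE 0.13, adjusted p = 0.00195) and Tap1, the peptide transporter, at −0.63 log2 units (SE 0.11, adjusted p = 0.000704). Complement genes fell in 8 of 12 cases (5 without inhibitor replicate 2). C3, the central component, stood at 86.6, 123, 159 and 129 CPM and 79.5, 47.0, 51.5 and 65.6 CPM (log2 fold change −1.03, SE 0.25, adjusted p = 0.00636), and C4b changed by −1.14 log2 units (SE 0.28, adjusted p = 0.00703). Chemokine and chemokine receptor genes fell in 13 of 22 cases (7 without inhibitor replicate 4 and 8 without MI replicate 4, but 22 under total-count scaling). Ccl11, eotaxin, stood at 1.24, 2.71, 5.196 and 4.16 CPM and 0.758, 0.694, 0.897 and 0.780 CPM (log2 fold change −2.07, SE 0.34, adjusted p = 0.000449), and Ccl7, a monocyte attractant, changed by −0.77 log2 units (SE 0.14, adjusted p = 0.000675). Ccl2, the main monocyte attractant, was not called (log2 fold change −0.27, SE 0.20, adjusted p = 0.327). Among interleukin-1 and interleukin-6 family genes 4 of 17 fell (2 without inhibitor replicate 4, but 13 under total-count scaling). The receptor Il1r1 changed by −0.50 log2 units (SE 0.14, adjusted p = 0.0116), and Il1b, largely from MI replicate 3, was not called (log2 fold change −1.32, SE 0.76, adjusted p = 0.221). Interferon response genes fell in 6 of 25 cases (11 without MI replicate 3), with a median of −0.26. The number was 12 with upper-quartile scaling and 25 with total-count scaling. Zbp1, a nucleic acid sensor, and Oas2, an antiviral synthetase, changed by −0.48 log2 units (SE 0.09, adjusted p = 0.00112) and −0.51 log2 units (SE 0.13, adjusted p = 0.00666), while Irf7, Ifit1 and Isg15 were not called (log2 fold changes −0.28, −0.20 and −0.19). Irf7 passed without MI replicate 3 (log2 fold change −0.31, adjusted p = 0.0448) or inhibitor replicate 2 (log2 fold change −0.36, adjusted p = 0.0284).

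Most adipocyte genes were far lower in inhibitor hearts. Of 13 tested, 9 fell and 2 rose, with a median log2 difference of −3.10, and the summed level was 1508 to 2635 CPM in MI and 996 to 1286 CPM in inhibitor hearts. Adipoq, the adipocyte hormone adiponectin, stood at 53.2, 79.8, 83.1 and 91.4 CPM in MI hearts 1 to 4 and 4.31, 2.59, 17.6 and 8.03 CPM in inhibitor hearts 1 to 4 (log2 fold change −3.23, SE 0.72, adjusted p = 0.00606). Plin1, the droplet coat of fat cells, stood at 6.75, 12.97, 10.5 and 11.9 CPM and 0.758, 0.548, 1.58 and 0.808 CPM (log2 fold change −3.48, SE 0.48, adjusted p = 0.000250). All 4 MI hearts were above all 4 inhibitor hearts in both, and inhibitor replicate 3 was the highest of its group. Sham hearts held 7.37 ± 3.01 CPM of Adipoq (SD, n = 3), within the range of the inhibitor hearts. Cfd, the protease adipsin, changed by −3.52 log2 units (SE 0.83, adjusted p = 0.00856), and Car3, an abundant carbonic anhydrase of fat and muscle, by −3.67 log2 units (SE 0.79, adjusted p = 0.00496). The rises were of Dgat2, the last enzyme of triglyceride synthesis (log2 fold change 1.57, SE 0.18, adjusted p = 6.95e-05), and Cidea, a further member (log2 fold change 1.45, SE 0.37, adjusted p = 0.0110). The sources used here do not give how much fat was taken with each border zone.

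Few endothelial markers passed the test. Of 15 tested, 1 rose and 1 fell, while 29.6% of all genes tested were called. Pecam1, the junction protein CD31, stood at 29.9, 29.9, 35.996 and 28.4 CPM in MI and 32.9, 36.6, 31.1 and 34.1 CPM in inhibitor hearts (log2 fold change 0.12, SE 0.10, adjusted p = 0.385). The ranges overlapped. Flt1, the VEGF receptor 1, rose by 0.48 log2 units (SE 0.12, adjusted p = 0.00636), and Cdh5, VE-cadherin, fell (log2 fold change −0.28, SE 0.10, adjusted p = 0.0450), a call lost without MI replicate 1, 2 or 3 or inhibitor replicate 1, 2 or 3 (adjusted p = 0.0556 to 0.117). The number of endothelial rises was 3 without inhibitor replicate 3 and 5 without MI replicate 3, and that of falls 0 without MI replicate 1, 2 or 3 or inhibitor replicate 1, 2 or 3. With total-count scaling 0 rose and 7 fell. Vegfa, the main angiogenic growth factor and a product of cardiomyocytes among other cells, rose from 5.55 ± 2.62 to 11.4 ± 2.60 CPM (SD, n = 4 each), by 1.04 log2 units (SE 0.28, adjusted p = 0.0120). The Notch ligand Jag1 and the growth factor Vegfd fell, with log2 fold changes of −0.78 (SE 0.15, adjusted p = 0.00126) and −0.67 (SE 0.16, adjusted p = 0.00494). Among 17 angiogenic signals 2 rose (1 without inhibitor replicate 4) and 3 fell (5 without MI replicate 3, but 14 under total-count scaling). Pericyte genes had 5 rises and 3 falls among 10, but 2 and 3 with upper-quartile scaling and 1 and 5 with total-count scaling. The number of rises was 1 without inhibitor replicate 2 or 4, 2 without MI replicate 4 and 3 without MI replicate 2. Kcnj8, a potassium channel of pericytes, rose by 0.92 log2 units (SE 0.17, adjusted p = 0.000989), while Pdgfrb, the receptor that recruits pericytes and that fibroblasts share, fell (log2 fold change −0.52, SE 0.12, adjusted p = 0.00430). Mesothelial genes such as Wt1, red cell genes such as Hba-a1 and skeletal muscle genes such as Myh4 had no member called by the quasi-likelihood test. At an unadjusted p under 0.05 there were 0 of 11, 0 of 5 and 8 of 9. The number of skeletal muscle falls was 2 without MI replicate 3 or 4, and 8 with total-count scaling. Inhibitor replicate 1 held the most of the mesothelial RNA, at 18.6, 3.18, 6.64 and 5.51 CPM of Wt1 in inhibitor hearts 1 to 4.

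Genes of proliferation and of rapid responses moved in part. Of 23 cell cycle genes, 7 fell (1 without MI replicate 2, 2 without inhibitor replicate 4, 3 without MI replicate 1 or inhibitor replicate 3 and 11 without MI replicate 3). The number was 11 with upper-quartile scaling and 23 with total-count scaling. Rrm2, a subunit of the enzyme that makes DNA precursors, stood at 12.1, 10.8, 8.03 and 8.36 CPM in MI and 7.03, 7.34, 5.47 and 4.74 CPM in inhibitor hearts (log2 fold change −0.68, SE 0.18, adjusted p = 0.00954). Mki67 and Top2a, the usual markers of cycling cells, were not called (log2 fold changes −0.46 and −0.52). Mki67 passed without MI replicate 4 (log2 fold change −0.63, adjusted p = 0.0225), and Top2a without MI replicate 4 (log2 fold change −0.70, adjusted p = 0.0198). Of 18 immediate early genes, 6 rose and 1 fell, and with total-count scaling 3 rose and 6 fell. Btg2, an antiproliferative early gene, rose by 0.80 log2 units (SE 0.18, adjusted p = 0.00362), and Fosl2, a subunit of AP-1, fell (log2 fold change −0.49, SE 0.11, adjusted p = 0.00349). The clock genes Arntl and Per1 were not called (log2 fold changes −0.28 and −0.28), and of 16 clock genes 3 rose (1 without MI replicate 4 or inhibitor replicate 4) and 1 fell (0 without MI replicate 2 or 4 or inhibitor replicate 2 or 3), while total-count scaling gave 0 rises and 6 falls. Among all genes tested, with TMM scaling, 17.9% rose and 11.7% fell. Per1 passed, lower, without MI replicate 1 (log2 fold change −0.36, adjusted p = 0.0278) or inhibitor replicate 4 (log2 fold change −0.35, adjusted p = 0.0424).

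**Figure D3:**
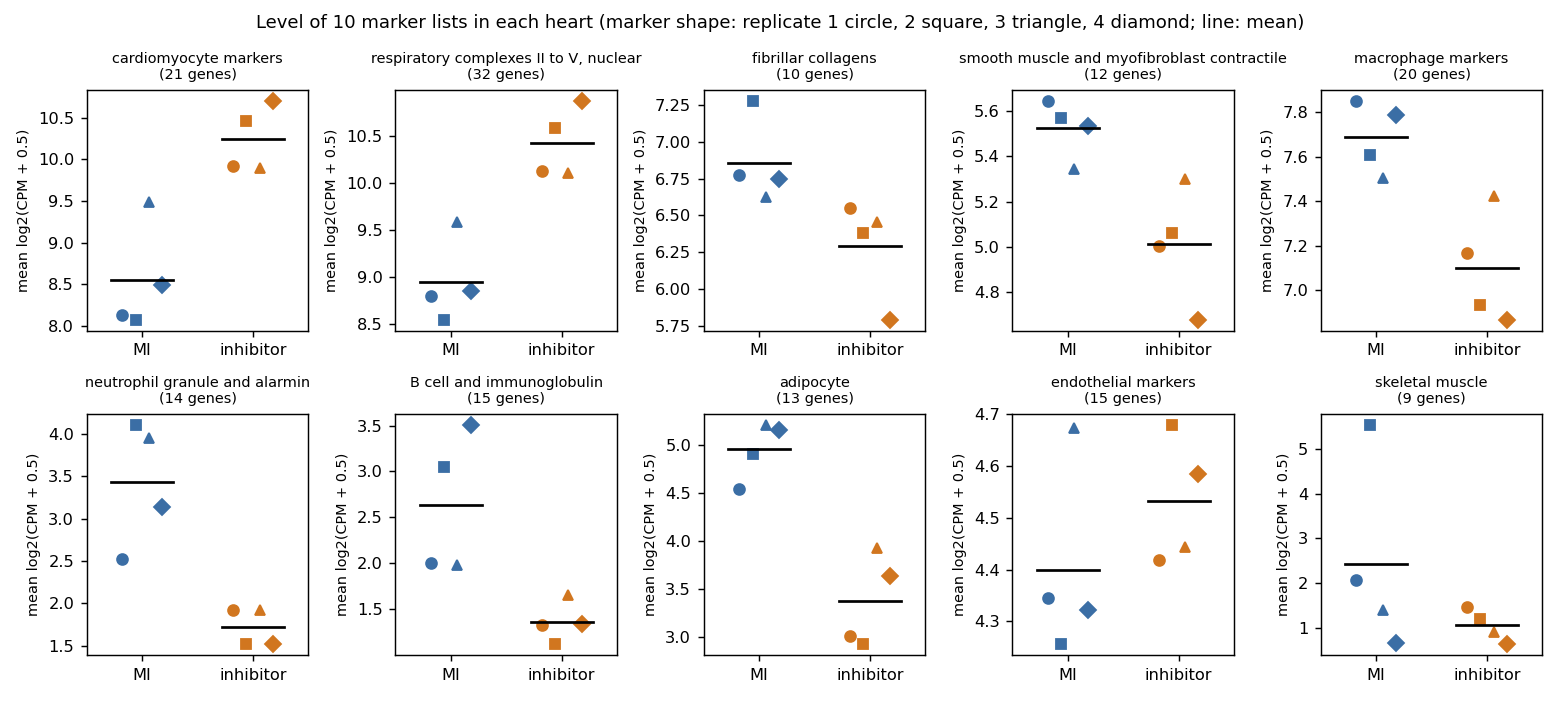
Mean log2(CPM + 0.5) of the tested members of 10 marker lists in each of 4 MI (blue) and 4 inhibitor (orange) hearts, with 1 marker shape per replicate number and a line at each group mean. The cardiomyocyte and respiratory chain levels of the groups do not overlap, and the skeletal muscle level is highest in MI replicate 2.

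By size alone, the 12 largest rises and 12 largest falls among called genes of at least 10 CPM without overlap included genes of the groups above and others. The rises held Acta1, Myl3 and Myh7, and were led by Bdh1, which oxidises the ketone body beta-hydroxybutyrate. Bdh1 stood at 2.97, 2.68, 9.24 and 3.93 CPM in MI and 27.5, 46.9, 19.7 and 38.9 CPM in inhibitor hearts (log2 fold change 2.82, SE 0.38, adjusted p = 0.000239), above the sham mean of 5.98 ± 0.536 CPM (SD, n = 3). Ptgds, a prostaglandin D synthase, stood at 89.8, 73.4, 347 and 131 CPM and 1037, 1177, 723 and 1323 CPM (log2 fold change 2.73, SE 0.44, adjusted p = 0.000579). Abra, an actin-binding protein of striated muscle, rose by 2.40 log2 units (SE 0.43, adjusted p = 0.00142), and Tuba8, a tubulin of muscle and brain, by 2.46 log2 units (SE 0.38, adjusted p = 0.000540). A further 4 were transcripts annotated as noncoding, Gm45670, D830005E20Rik, Gm13943 and Gm5860, at log2 fold changes of 2.79, 2.42, 2.57 and 2.52. The first pair is annotated as antisense. Exons of genes on the other strand overlap Bdh1, Tuba8, Gm5860, Myl3 and Myh7, and without the counting strand such reads cannot be told apart. The same holds for other genes named above, among them Corin, Dpp4, Npr1 and Npr3.

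Of the 12 largest falls, 5 were genes of the adipocyte list (Car3, Cfd, Retn, Plin1 and Cidec) and 4 of the neutrophil list (Ngp, Camp, S100a9 and Hp). Retn, resistin, stood at 57.2, 84.7, 117 and 138 CPM in MI and 4.41, 3.10, 19.1 and 8.43 CPM in inhibitor hearts (log2 fold change −3.49, SE 0.71, adjusted p = 0.00382), and Cidec, a droplet fusion protein, changed by −3.44 log2 units (SE 0.71, adjusted p = 0.00392). Wfdc21, a small secreted protein of the WAP family, stood at 19.4, 33.9, 25.5 and 33.6 CPM and 2.34, 1.096, 5.05 and 2.08 CPM (log2 fold change −3.39, SE 0.62, adjusted p = 0.00193). Cxcl13, the chemokine that attracts B cells, stood at 28.8, 97.7, 64.9 and 330.2 CPM in MI hearts 1 to 4 and 8.51, 3.47, 20.1 and 11.7 CPM in inhibitor hearts 1 to 4, with MI replicate 4 highest (log2 fold change −3.57, SE 1.19, adjusted p = 0.0428), and lost the call without MI replicate 2 or 4 or inhibitor replicate 1, 2, 3 or 4 (adjusted p = 0.0522 to 0.124). The immunoglobulin segment Igkv14-126 changed by −3.50 log2 units (SE 1.06, adjusted p = 0.0283) and lost it without MI replicate 4 or inhibitor replicate 1, 2 or 4 (adjusted p = 0.0655 to 0.0882). The genes were picked for their size of change, so their fold changes are a description.

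**Figure D4:**
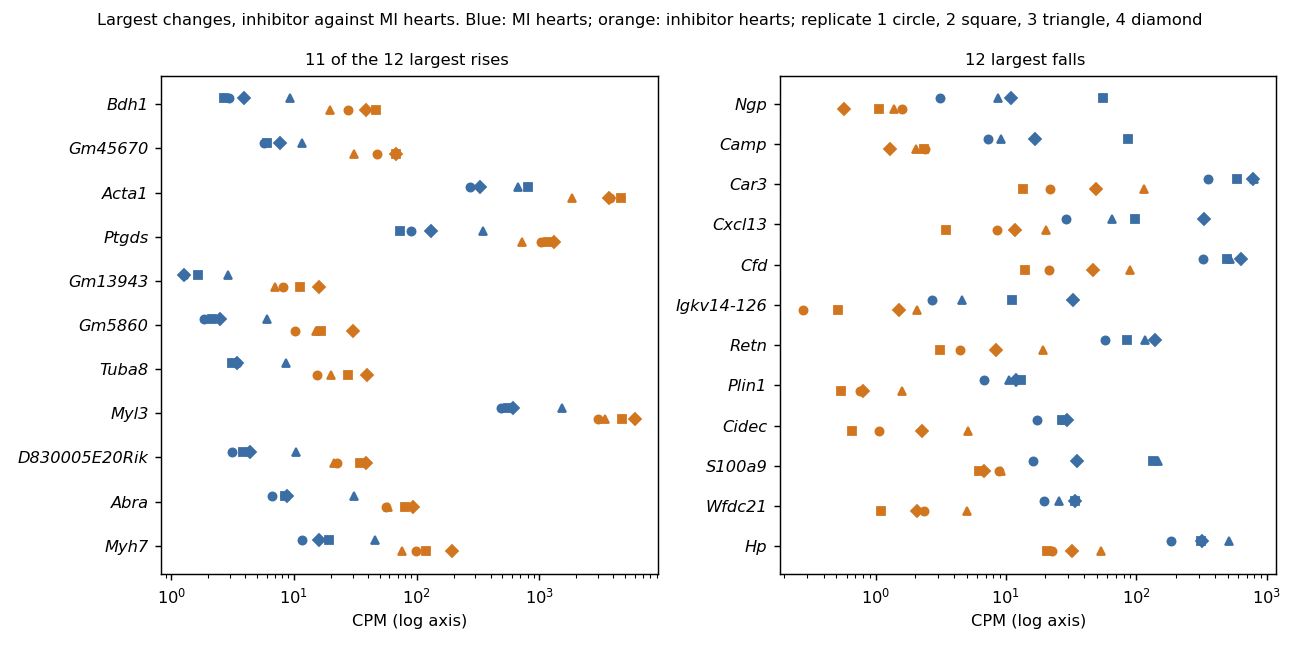
CPM on a log axis of 11 of the 12 largest rises (left) and the 12 largest falls (right) in 4 MI (blue) and 4 inhibitor (orange) hearts, with 1 marker shape per replicate number. In every gene shown the 2 groups do not overlap, and among the falls MI replicate 2 is far right for Ngp and Camp and MI replicate 4 for Cxcl13 and Igkv14-126.

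Inhibitor hearts were also set directly against the infarcted knockout hearts, to see where levels differed between hearts given FAPI and hearts of the FapKO genotype. Genotype and treatment differ together in this comparison. Of 17064 genes, 2228 differed (13.1%), 1191 higher in inhibitor hearts (6.98%) and 1037 lower (6.08%). The number was 1355 without inhibitor replicate 1, 1197 without inhibitor replicate 3, 1435 without knockout replicate 1 and 1140 without knockout replicate 3. Fap RNA stood at 2.19, 2.32, 2.36 and 1.79 CPM in knockout hearts 1 to 4, low but not at 0, and all 4 were below the inhibitor hearts (log2 difference 1.93, SE 0.16, adjusted p = 8.43e-07). Both groups are set beside the same MI hearts elsewhere, so no shared change is read from that.

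Interferon response genes were higher in inhibitor than in knockout hearts without exception: 25 of 25 passed the test, with a median log2 difference of 1.24, beside 0.02 over all genes. Irf7, the factor that amplifies the response, stood at 105, 112, 90.8 and 82.8 CPM in inhibitor hearts and 30.9, 27.6, 25.5 and 25.97 CPM in knockout hearts, a difference of 1.83 (SE 0.11, adjusted p = 2.45e-08). MI hearts held 111 to 128 CPM, close to the inhibitor hearts. Ifit1, which binds foreign RNA, stood at 83.8, 77.5, 87.4 and 60.5 CPM and 24.5, 22.99, 19.9 and 21.995 CPM (log2 difference 1.79, SE 0.14, adjusted p = 3.3e-07), with 73.5 to 106 CPM in MI hearts. Isg15, a ubiquitin-like effector, differed by 1.55 log2 units (SE 0.15, adjusted p = 3.18e-06). The sources used here do not say whether the genotypes were littermates.

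Macrophage markers were higher in inhibitor than in knockout hearts in 15 of 20 cases (9 without inhibitor replicate 3 or knockout replicate 3). Fcgr1, the high-affinity Fc receptor, stood at 31.7, 29.6, 41.4 and 29.1 CPM in inhibitor and 12.9, 15.7, 11.6 and 12.99 CPM in knockout hearts (log2 difference 1.31, SE 0.14, adjusted p = 1.15e-05). Class I genes were higher in 8 of 12 cases (5 without inhibitor replicate 1), with Tap1 at 0.61 log2 units (SE 0.12, adjusted p = 0.00236). Activated fibroblast and matricellular genes were higher in 11 of 18 cases. Postn stood at 1331, 1299, 1080.1 and 867 CPM in inhibitor and 589.6, 588, 589 and 663 CPM in knockout hearts (log2 difference 0.91, SE 0.18, adjusted p = 0.00278), and Fn1, fibronectin, differed by 0.92 log2 units (SE 0.19, adjusted p = 0.00478). Endoplasmic reticulum chaperones were higher in 10 of 16 cases (4 without inhibitor replicate 1, 5 without knockout replicate 1 or 3 and 6 without inhibitor replicate 2 or 3). Hspa5, the chaperone BiP, differed by 0.54 log2 units (SE 0.13, adjusted p = 0.0133) and did not pass without inhibitor replicate 1 or knockout replicate 1 (adjusted p = 0.0546 and 0.0517). Immediate early genes were higher in 11 of 18 cases (6 without knockout replicate 3 and 7 without knockout replicate 1), with Fos, a subunit of AP-1, at 1.5002 log2 units (SE 0.29, adjusted p = 0.00418). Of the neutrophil genes 1 passed the test, the further member Lcn2, which binds iron carriers of bacteria (log2 difference 1.38, SE 0.41, adjusted p = 0.0427). The number of higher neutrophil genes was 0 without inhibitor replicate 1, 2 or 3 or knockout replicate 1, 2 or 3, and that of lower ones 1 without knockout replicate 1. No B cell or cell cycle gene passed the quasi-likelihood test, with median log2 differences of −1.44 and −0.33. At an unadjusted p under 0.05 there were 4 of 15 and 4 of 23.

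Fatty acid oxidation genes were lower in inhibitor than in knockout hearts, 21 of 26, with a median log2 difference of −0.78. Hadh, which oxidises hydroxyacyl-CoA of short and medium chains, stood at 95.7, 123, 91.9 and 141 CPM in inhibitor hearts and 237, 199.9, 250.04 and 180.2 CPM in knockout hearts (log2 difference −0.94, SE 0.16, adjusted p = 0.00130). Acadl was not called (log2 difference −0.56, SE 0.25, adjusted p = 0.144). Fewer respiratory chain subunits passed the test, with 7 of 29 complex I genes and 1 of 32 genes of complexes II to V lower. All 29 and all 32 log2 differences were nevertheless below 0, with medians of −0.60 and −0.49. At an unadjusted p under 0.05 in the quasi-likelihood test there were 25 of 29 and 20 of 32. The numbers that passed moved with single libraries: the complex I genes were 1 without inhibitor replicate 1 or 3 or knockout replicate 1 or 3 and 22 without inhibitor replicate 4, and the complex II to V genes 14 without inhibitor replicate 4. Cardiomyocyte markers were lower in 3 of 21 cases. Of 15 stress and stretch genes, 2 were higher, beside 6.98% of all genes. That number was 1 without inhibitor replicate 1, 2 or 4 or knockout replicate 1, 2 or 3. All 15 log2 differences were above 0, with a median of 0.54, and 4 had an unadjusted p under 0.05 in the quasi-likelihood test. Acta1, Myl3, Myh7 and Ankrd1 did not pass the adjusted test (log2 differences 0.06, −0.27, 0.42 and 0.14). Nppb stood at 220.0, 144, 310.1 and 325 CPM in inhibitor and 49.3, 114, 63.9 and 213 CPM in knockout hearts and did not pass either (log2 difference 1.18, SE 0.57, adjusted p = 0.190). Adipocyte genes were lower in inhibitor than in knockout hearts in 5 of 13 cases (8 without inhibitor replicate 3 or knockout replicate 1). Plin1 differed by −2.03 log2 units (SE 0.49, adjusted p = 0.0156) and did not pass without inhibitor replicate 1 (adjusted p = 0.0519).

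**Figure D5:**
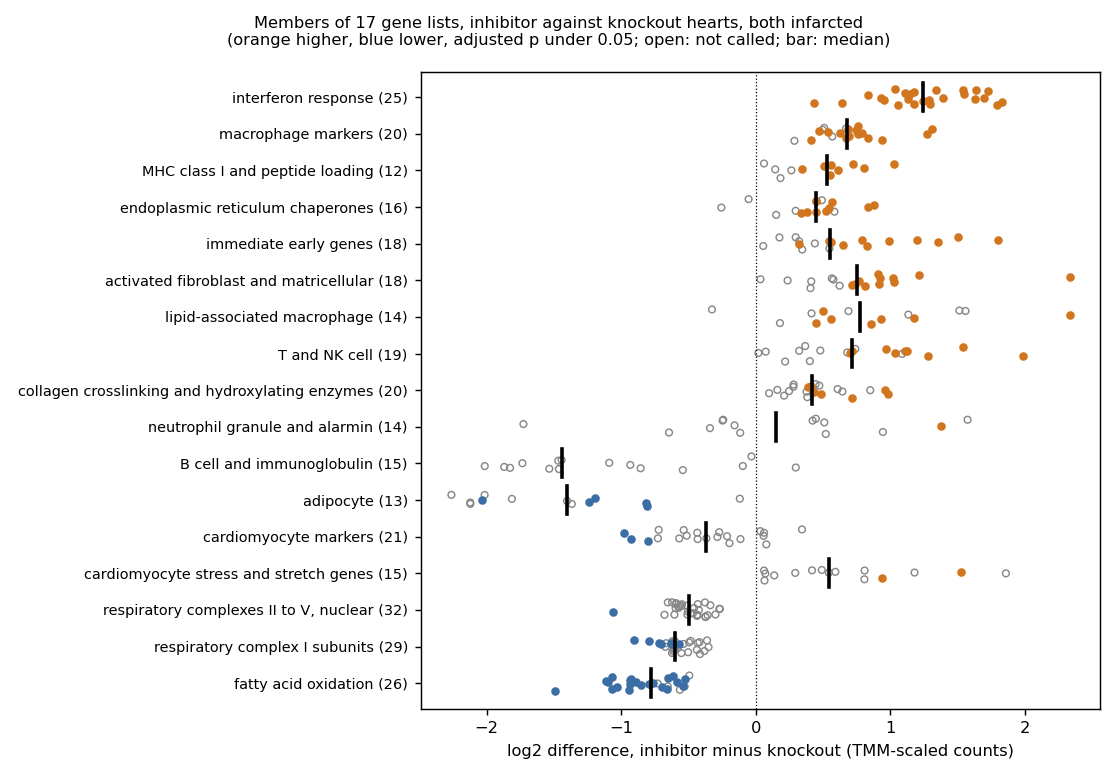
Log2 differences (inhibitor minus knockout hearts, both infarcted, horizontal axis) of the tested members of 17 gene lists (rows, with the number tested), with orange points for genes higher in inhibitor hearts, blue for lower, open points for genes not called and a bar at each median. All 25 interferon response genes lie right of 0 and 21 of 26 fatty acid oxidation genes are called left of it.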

How the data were processed

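RNA of 15 heart libraries was sequenced with a modified Smart-seq2 protocol from RNeasy-purified total RNA, per the labels' protocols. The authors deposited whole-number read counts per gene, 1 file per library. STAR, HTSeq and mm10 are named in the submitters' processing notes, with no versions. The sources used here do not say whether duplicates were removed by molecular barcode, or which strand was counted. Of 53801 gene identifiers, 53620 matched a symbol. The files held no row without a gene. The members and gene lists were chosen with earlier results of these data known. Another 6 columns of a series table matched no sample and were not used.

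Counts were filtered with filterByExpr and scaled with TMM in edgeR 4.0.16 (R 4.3.3). All 15 hearts entered 1 quasi-likelihood fit with 1 coefficient per group and robust dispersion, and inhibitor minus MI and inhibitor minus knockout were tested. P-values were adjusted by the Benjamini-Hochberg method over all genes tested, with a threshold of 0.05. The approximate standard error is the size of a log2 fold change over the root of its F statistic. Depth was 18474138 to 37287355 gene counts in the 8 hearts compared, so counting error is small for genes above a few CPM and larger below 1 CPM. On counts simulated for inhibitor versus MI, edgeR called 21 of 50 genes changed 1.5-fold, 43 of 50 changed 2-fold, 49 of 50 changed 3-fold and 50 of 50 changed 4-fold. The changed genes had a mean of at least 1 CPM, and 16359 genes were left unchanged. A far larger share of genes was called in the data, so these counts do not give the miss rate of the data.

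Genes named were 8 study genes (Fap, Nppb, Nppa, Npr1, Npr3, Mme, Dpp4 and Corin), the 12 largest rises and 12 largest falls among called genes with a mean of at least 10 CPM in 1 group and no overlap, and from each list its first 4 genes and the 2 with the smallest p. A few genes that the rule names are not reported here. Alternatives were other scalings (RLE, upper-quartile, total-count), filters (none, 1 CPM in 3 hearts) and tools (DESeq2 1.42.0, limma-voom 3.58.1). Further ones were the 8 hearts alone, a replicate block, the cardiomyocyte marker level as a covariate, and each library left out. Another left mitochondrial and the 50 most abundant genes out of the counts, so that these genes were not tested in it. Promoters came from RefSeq's GRCm38.p6 annotation, and symbols and positions from GENCODE annotation of mm10.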

Additional observations from a re-analysis of the deposited data

Results flagged for a closer look

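In 26 of 402 groups of 4 values, 1 heart lay so far from the other 3 that its gap to the nearest, as a share of the range of the group, exceeded Dixon's critical value at 95%, and chance flags about 1 in 20 groups. The values of a heart are given beside the range of the other 3 of its group.

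MI replicate 3 accounted for 14 of them. It held Abra at 30.6 CPM against 6.68 to 8.71 CPM, Ankrd1 at 3946 CPM against 1846 to 2146 CPM and Ckmt2 at 627 CPM against 228 to 291 CPM. In the same heart stood Cox8b at 1029 CPM against 489 to 501 CPM, D830005E20Rik at 10.4 CPM against 3.16 to 4.35 CPM and Gm5860 at 6.04 CPM against 1.86 to 2.50 CPM. Then came Il1b at 20.4 CPM against 1.58 to 3.51 CPM, Mmp9 at 6.19 CPM against 0.402 to 1.06 CPM and Myh6 at 362 CPM against 134 to 158 CPM. It also had Myl3 at 1527 CPM against 482 to 604 CPM, Myl7 at 48.3 CPM against 0.619 to 4.70 CPM and Ppara at 2.92 CPM against 1.70 to 1.76 CPM. The last were Tuba8 at 8.62 CPM against 3.12 to 3.47 CPM and mt-Co1 at 2009 CPM against 1062 to 1153 CPM. Of these, Il1b and Mmp9 are inflammatory genes, Myl7 is an atrial gene, and most of the others are expressed by cardiomyocytes.

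MI replicate 2 held Camp at 86.9 CPM against 7.33 to 16.6 CPM, Mef2c at 137 CPM against 58.5 to 65.1 CPM and Mylpf at 293 CPM against 2.74 to 10.7 CPM. It also held Ngp at 55.4 CPM against 3.13 to 10.9 CPM and Sfrp4 at 11.6 CPM against 4.51 to 4.83 CPM. MI replicate 4 held Ighm at 1656 CPM against 109.7 to 285 CPM and Igkc at 5105 CPM against 255 to 709 CPM. Inhibitor replicate 1 held Myl7 at 7.44 CPM against 1.73 to 2.63 CPM. Inhibitor replicate 3 held Nqo1 at 43.3 CPM against 68.3 to 70.1 CPM. Inhibitor replicate 4 held Acta2 at 202 CPM against 447 to 466 CPM, Bgn at 656 CPM against 828 to 853 CPM and Cd2 at 2.22 CPM against 2.81 to 2.93 CPM.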

How the results depend on the processing

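Between inhibitor and MI hearts 5043 genes were called. The number was 4992 with RLE scaling, 5429 with upper-quartile scaling, 5154 with DESeq2, 5239 with limma-voom, 4361 without a filter, 4988 with a minimum of 1 CPM in 3 hearts, 4049 with the 8 hearts alone and 4970 without mitochondrial and the 50 most abundant genes. It was 9905 with total-count scaling, 1409 with a 2-fold minimum and 22 with the marker level of cardiomyocytes as a covariate, and 3341 to 5438 with 1 library left out. The number against knockout hearts, 2228, was 2207 with RLE, 2322 with total-count scaling, 2682 with DESeq2, 2144 with the 8 hearts alone and 1140 to 2916 with 1 library left out. Apart from what the construction of a setting shows, the cause was not tested. Replicate numbers did not pair the libraries: the correlations of same-numbered MI and inhibitor deviations were 0.06, 0.08, −0.20 and 0.14, and with the replicate block 4964 and 2031 genes were called.

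Some log2 fold changes turned sign. With total-count scaling these were Ace (−0.095), Adrb1 (−0.032), Hspa5 (−0.085), Npr3 (−0.32), Pecam1 (−0.30), Postn (−0.41), Prep (−0.12) and Wt1 (−0.14). With upper-quartile scaling it was Postn (−0.063) and with the 8 hearts alone Postn (−0.022). With the marker covariate only the 8 study genes were checked, and Corin (−0.85), Dpp4 (0.041), Fap (0.12) and Npr3 (−0.84) turned. Other named genes may have turned in that fit too. In it the list medians of potassium channels and calcium handling turned negative. Those of fibrillar collagens and activated fibroblast genes turned positive, while those of complex I and fatty acid oxidation kept their sign. Over the fits that leave out 1 library the values ranged across 0 for Dcn (−0.12 to 0.026), Dpp4 (−0.49 to 0.010), Il1b (−1.65 to 0.30), Mef2c (−0.47 to 0.039), Myl7 (−2.78 to 0.35), Mylpf (−3.92 to 0.097), Npr3 (−0.094 to 0.29), Postn (−0.12 to 0.15), Spp1 (−0.51 to 0.88), Tgfb1 (−0.15 to 0.039) and Wt1 (−0.49 to 0.50). Of these genes Corin and Fap were called with all libraries.

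With 4 libraries a group, small changes can be missed, and genes under 1 CPM have few counts. The simulated counts do not give the rate for these data, because few of their genes were changed.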
